A study of Homo sapiens with 12 samples.

Results

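Ribosome biogenesis and RNA polymerase I transcription were followed through 39 genes of nucleolar factors, chosen by name, in HPV+ HNSCC cells treated with the BET inhibitor JQ1. The genes were picked as factors held to depend on the transcription factor MYC. All 39 were matched among the 20738 genes of the deposited table. The cells were UM-SCC-47 and UPCI-SCC-090, established lines of HPV+ head and neck squamous cell carcinoma, and each received either JQ1 at 500 nM or the vehicle DMSO at 0.1% over 72 h. The 4 groups were UM-SCC-47 with JQ1, UM-SCC-47 with DMSO, UPCI-SCC-090 with JQ1 and UPCI-SCC-090 with DMSO, with 3 libraries each and 12 in all. Each line stands for 1 tumor, and the labels do not say whether replicates were separate cultures, so p-values measure the spread between these libraries, which may be technical.

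Ribosomes are made in the nucleolus. RNA polymerase I transcribes the ribosomal DNA there, with UBTF shaping the promoter and RRN3 bringing the initiation-competent polymerase, and small nucleolar ribonucleoproteins (snoRNPs) of the box C/D class guide methylation of the transcript while those of the H/ACA class guide pseudouridylation. Assembly factors then cut and fold the RNA into the small and large subunits. MYC, a transcription factor that binds the E-box CACGTG with MAX, is known to activate many of these genes, and BET proteins, which JQ1 displaces from acetylated chromatin, are known to sustain MYC in many tumors. The question was how these genes stood beside MYC under JQ1.

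Promoter windows of members that the results turn on are shown because the E-box lies in or near many of these promoters. Each runs from 250 bases before to 50 bases after the start of the gene on its own strand (RefSeq, GRCh38.p14), with CACGTG or the related CACGCG and CGCGTG in capitals. The first 4 belong to the members that were lower with JQ1 in both lines, and the last 2 to members that were higher in 1 line.
POLR1A: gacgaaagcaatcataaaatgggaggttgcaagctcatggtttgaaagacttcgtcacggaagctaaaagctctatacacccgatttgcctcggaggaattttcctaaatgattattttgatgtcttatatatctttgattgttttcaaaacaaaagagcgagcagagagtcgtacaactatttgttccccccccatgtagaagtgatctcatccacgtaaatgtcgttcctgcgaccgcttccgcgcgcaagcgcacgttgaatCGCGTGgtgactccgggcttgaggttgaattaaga
UBTF: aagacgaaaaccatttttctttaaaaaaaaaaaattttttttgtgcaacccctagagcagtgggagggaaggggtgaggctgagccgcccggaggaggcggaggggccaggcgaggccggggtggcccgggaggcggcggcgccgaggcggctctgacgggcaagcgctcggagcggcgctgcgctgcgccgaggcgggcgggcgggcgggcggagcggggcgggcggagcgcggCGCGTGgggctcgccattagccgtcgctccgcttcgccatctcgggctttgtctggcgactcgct
NOP14: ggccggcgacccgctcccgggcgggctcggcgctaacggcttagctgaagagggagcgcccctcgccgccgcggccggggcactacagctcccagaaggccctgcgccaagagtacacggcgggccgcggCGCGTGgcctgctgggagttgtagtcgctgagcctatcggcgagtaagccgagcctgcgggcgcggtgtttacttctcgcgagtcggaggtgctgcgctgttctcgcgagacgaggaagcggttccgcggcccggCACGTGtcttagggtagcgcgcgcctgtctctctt
MYBBP1A: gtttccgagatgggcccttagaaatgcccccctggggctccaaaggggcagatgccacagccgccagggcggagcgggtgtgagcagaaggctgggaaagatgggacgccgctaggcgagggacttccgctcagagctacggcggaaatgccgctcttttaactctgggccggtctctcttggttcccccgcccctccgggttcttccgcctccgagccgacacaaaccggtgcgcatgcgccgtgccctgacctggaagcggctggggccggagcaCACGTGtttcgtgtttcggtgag
RRP9: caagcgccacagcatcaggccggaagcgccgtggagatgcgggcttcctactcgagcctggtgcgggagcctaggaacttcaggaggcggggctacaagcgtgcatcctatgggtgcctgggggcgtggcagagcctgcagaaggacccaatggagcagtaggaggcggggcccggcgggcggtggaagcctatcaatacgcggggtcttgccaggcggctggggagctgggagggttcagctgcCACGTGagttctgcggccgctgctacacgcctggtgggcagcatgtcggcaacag
EBNA1BP2: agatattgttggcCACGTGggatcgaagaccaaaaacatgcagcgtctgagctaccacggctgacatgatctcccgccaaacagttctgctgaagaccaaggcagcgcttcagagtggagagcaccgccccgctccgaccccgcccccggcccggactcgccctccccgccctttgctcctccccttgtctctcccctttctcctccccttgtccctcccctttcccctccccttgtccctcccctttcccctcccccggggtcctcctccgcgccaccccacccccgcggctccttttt
The windows lie at chr2:86105837-86106136 for POLR1A, chr17:44220833-44221132 for UBTF, chr4:2963357-2963656 for NOP14, chr17:4555335-4555634 for MYBBP1A, chr3:51941855-51942154 for RRP9 and chr1:43172521-43172820 for EBNA1BP2, all on the minus strand. A window was found for 34 of the 39 members, all but NOP58, NOLC1, RRP12, RRS1 and BOP1. Of these 34, 17 (50%) held CACGTG, which reads the same on both strands, against 2396 of 27305 genes (8.78%). A gene counts if any of its windows holds the motif, and the 27305 include genes not expressed here. Because the members were picked as factors held to depend on MYC, their share is tied to that choice and tests nothing. CACGCG or CGCGTG, which are 1 motif read on either strand, was held by 13 of 34 (38.24%), against 13.5% of all genes. Both motifs were held by 4 members and neither by 8. Counted from 1 at the first base of the gene, CACGTG began at position 16 in NOP14, 28 in MYBBP1A, -5 in RRP9 and -237 in EBNA1BP2, and the variant at 16 in POLR1A and -15 in UBTF. POLR1A and UBTF held only the variant, MYBBP1A, RRP9 and EBNA1BP2 only CACGTG, and NOP14 both. In UM-SCC-47 CACGTG was held by 5 of the 8 members that were lower with JQ1, 2 of the 3 that were higher and 10 of the 23 with a window that did not pass. In UPCI-SCC-090 it was held by 3 of 5, 1 of 1 and 13 of 28 in the same order. A match of letters is not a bound site.

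Total estimated counts ranged from 20349275 to 30788657 per library, and the 39 members took 0.236% to 0.416% of them. Levels are given as CPM, counts divided by the size of the library after TMM scaling over the 12 libraries. Fold changes of JQ1 over DMSO, also those given as a part of the DMSO level, come from the fit to each line. That fit uses TMM scaling over the libraries of the line alone, so its fold changes can differ from ratios of the CPM. A difference was called where the edgeR adjusted p was under 0.05. All 7 squamous markers were present in each group (summed level 2004 to 3611 CPM), whereas markers of leukocytes, endothelium and fibroblasts summed to at most 41.1, 8.09 and 29.1 CPM. CD3E was at 0 in UM-SCC-47, COL1A2 and LUM were at 0 with JQ1 in both lines, and CDH5 was at 0 in UPCI-SCC-090 with JQ1. Libraries differed in how levels followed the GC content of genes. The slope over all genes, in log2 units per 10 points of GC, ranged from -0.73 in UPCI-SCC-090 JQ1 replicate 3 to 0.66 in UPCI-SCC-090 DMSO replicate 2, and was -0.51 in UM-SCC-47 JQ1 replicate 3. In bulk RNA fewer cells with a transcript and less of it per cell cannot be told apart.

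MYC was lower with JQ1 in both lines. In UM-SCC-47 it had 53.7, 58.2 and 46.5 CPM with JQ1, against 93.5, 113 and 94.9 CPM with DMSO. In UPCI-SCC-090 it had 11.5, 16.3 and 11.4 CPM with JQ1, against 27.2, 37.7 and 32.3 CPM with DMSO. Every JQ1 library lay below every DMSO library of its line. In UM-SCC-47 the log2 fold change was -0.94 ± 0.14 (SE, edgeR adjusted p = 0.00302), and in UPCI-SCC-090 it was -1.43 ± 0.26 (edgeR adjusted p = 0.01). UPCI-SCC-090 lost the MYC call without JQ1 replicate 1 (-1.21, edgeR adjusted p = 0.142), without JQ1 replicate 3 (-1.24, edgeR adjusted p = 0.0639), with the libraries of steepest GC slope left out (-1.06, edgeR adjusted p = 0.126) and with RLE scaling (-1.13, edgeR adjusted p = 0.0598).

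**Figure D1:**
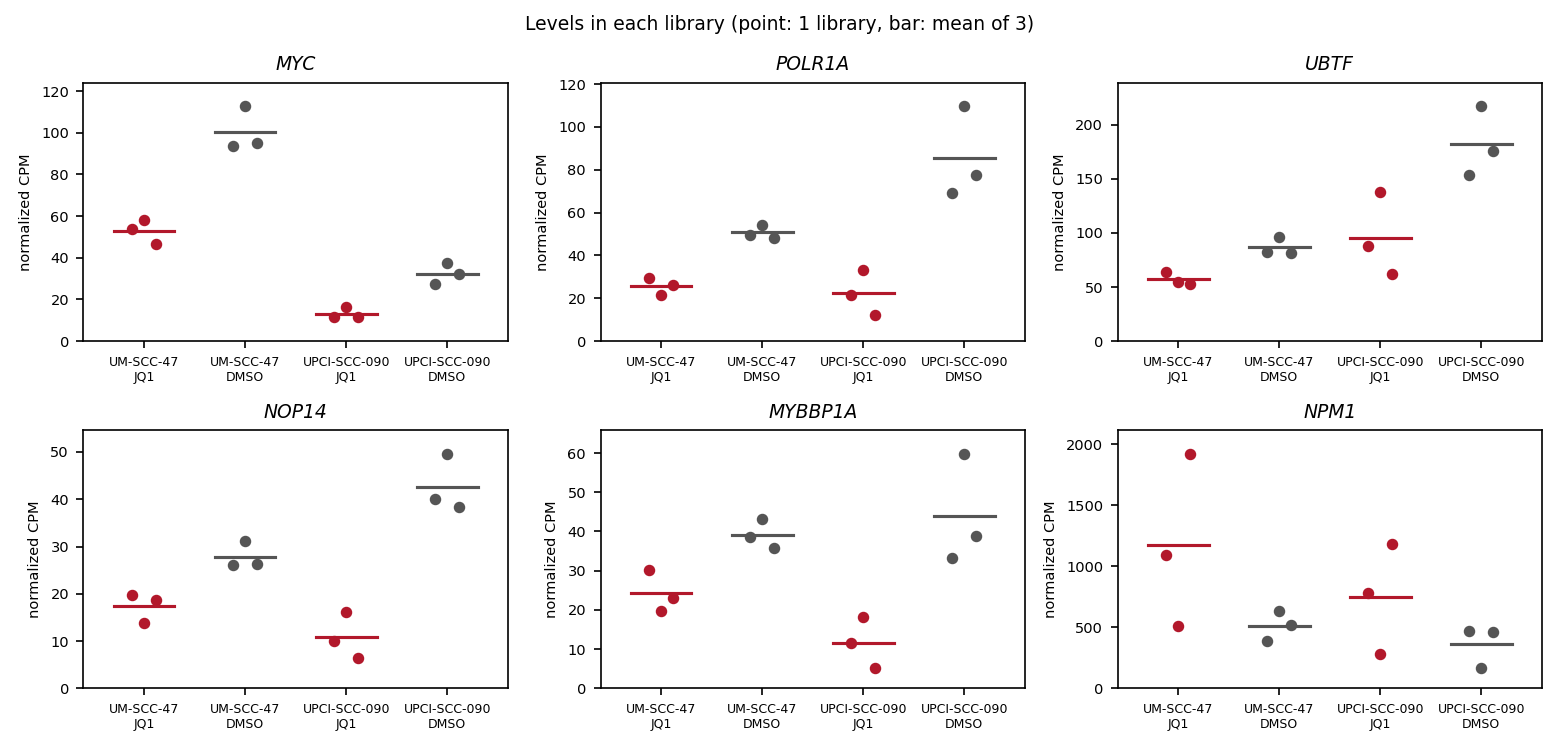
Normalized CPM (y axes, from 0) of MYC and 5 members in each library, with JQ1 in red and DMSO in grey, 1 point per library and a bar at the mean of 3. For MYC, POLR1A, UBTF, NOP14 and MYBBP1A every JQ1 library lies below every DMSO library of its line, whereas NPM1 spans 512 to 1922 CPM in UM-SCC-47 with JQ1 and overlaps DMSO.

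The first comparison was JQ1 against DMSO in UM-SCC-47. Of the 39 members, all of which passed the filter on low counts, 8 were lower (20.5%) beside 25.5% of all genes tested, and 3 were higher (7.69%) beside 16.1%. The other 28 did not pass. The members' median log2 fold change was 0.09, against -0.03 over all genes. The median changed sign with library size alone (-0.16), with the replicate block (-0.037) and without JQ1 replicate 2 (-0.10) or replicate 3 (-0.0038). JQ1 and DMSO libraries did not overlap for 16 members (10 below and 6 above), which is 41.0% of the list beside 55.3% of all genes.

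Within the RNA polymerase I machinery of UM-SCC-47 the members split. POLR1A, the largest subunit of the enzyme (GRCh37 chr2:86247339-86333278), had 29.4, 21.4 and 26.3 CPM with JQ1, against 49.7, 54.3 and 48.2 CPM with DMSO. This was 0.502 of the DMSO level (log2 fold change -0.99 ± 0.16, edgeR adjusted p = 0.00369), the largest fall among the called members in this line. UBTF (chr17:42282401-42298994) had 64.0, 54.7 and 52.5 CPM with JQ1, against 82.6, 96.5 and 81.4 CPM with DMSO. It too was lower without overlap (log2 fold change -0.62 ± 0.14, edgeR adjusted p = 0.0124). RRN3 had 70.0, 69.7 and 94.9 CPM with JQ1, against 46.8, 36.0 and 54.2 CPM with DMSO. It was higher in every JQ1 library (log2 fold change 0.76 ± 0.21, edgeR adjusted p = 0.0278), although the genome holds near-identical copies of RRN3 between which reads can be split. POLR1B, the second largest subunit, had 42.0, 51.4 and 43.0 CPM with JQ1, against 48.7, 43.9 and 45.5 CPM with DMSO. Its groups overlapped (log2 fold change -0.03 ± 0.14, edgeR adjusted p = 0.868).

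Each snoRNP class had 1 lower member in UM-SCC-47, of 3 for box C/D (33.3%) and of 4 for H/ACA (25%), beside 25.5% of all genes. Of 18 alternative ways of processing, the call was lost in 13 for FBL and 2 for GAR1. FBL, the methyltransferase of box C/D snoRNPs, had 154, 202 and 128 CPM with JQ1, against 256, 253 and 228 CPM with DMSO. The groups did not overlap (log2 fold change -0.62 ± 0.18, edgeR adjusted p = 0.0356), while its partners NOP56 (0.23 ± 0.12) and NOP58 (0.30 ± 0.62) did not pass. GAR1, an H/ACA core protein, had 6.17, 6.41 and 6.62 CPM with JQ1, against 11.7, 9.67 and 12.6 CPM with DMSO. It was lower at 0.56 of the DMSO level (log2 fold change -0.84 ± 0.18, edgeR adjusted p = 0.0103). The pseudouridine synthase DKC1 (-0.22 ± 0.13), NHP2 (-0.11 ± 0.23) and NOP10 (0.07 ± 0.23) did not pass.

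Among abundant nucleolar proteins of UM-SCC-47, MYBBP1A, which binds the MYB protein and acts in early rRNA processing, had 30.1, 19.7 and 23.1 CPM with JQ1, against 38.5, 43.1 and 35.9 CPM with DMSO. It was lower (log2 fold change -0.70 ± 0.19, edgeR adjusted p = 0.0281). Nucleolin (NCL), which binds rRNA precursors, had 399, 269 and 448 CPM with JQ1, against 365, 271 and 395 CPM with DMSO. These values overlapped throughout (log2 fold change 0.10 ± 0.24, edgeR adjusted p = 0.756). Nucleophosmin (NPM1), a histone and ribosome chaperone with many processed copies in the genome, had 1093, 512 and 1922 CPM with JQ1, against 389, 637 and 515 CPM with DMSO. JQ1 replicate 2 lay within the DMSO range, and the difference did not pass (log2 fold change 1.18 ± 0.47, edgeR adjusted p = 0.0893). NPM1 was called higher by DESeq2, without JQ1 replicate 2 and with a correction for GC content, but not with RLE scaling. The phosphoprotein NOLC1 (-0.39 ± 0.13) narrowly missed the threshold (edgeR adjusted p = 0.0519). GNL3 (0.51 ± 0.49), the RNA helicase DDX21 (1.09 ± 0.80) and LYAR (0.09 ± 0.54) did not pass either.

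Small subunit assembly held 3 lower (25%) and 2 higher (16.7%) members of 12 in UM-SCC-47, beside 25.5% and 16.1% of all genes. NOP14, a component of the processome that cuts the early precursor, had 19.7, 13.8 and 18.6 CPM with JQ1, against 26.2, 31.2 and 26.3 CPM with DMSO (log2 fold change -0.70 ± 0.19, edgeR adjusted p = 0.0275). NAT10, which acetylates rRNA cytidines, was lower at -0.47 ± 0.12 (edgeR adjusted p = 0.0234), and TSR1, a late assembly factor, at -0.49 ± 0.11 (edgeR adjusted p = 0.0116). For all 3 the JQ1 libraries lay below the DMSO libraries. RRP9, which binds U3 snoRNA, had 23.6, 30.1 and 20.6 CPM with JQ1, against 14.7, 15.5 and 11.8 CPM with DMSO. PNO1, a late factor beside NOB1, had 37.8, 51.5 and 36.2 CPM with JQ1, against 30.1, 25.3 and 27.7 CPM with DMSO. Both were higher without overlap (log2 fold change 0.81 ± 0.21, edgeR adjusted p = 0.0213, and 0.58 ± 0.18, edgeR adjusted p = 0.0442). Of 18 alternatives, the call was lost in 13 for PNO1, 11 for NAT10, 11 for NOP14, 6 for TSR1 and 5 for RRP9. The other 7 ran from -0.97 ± 0.79 for UTP20 to 0.64 ± 0.56 for DDX10. None of the 9 large subunit members passed edgeR's test in this line (range -0.43 for WDR12 to 0.54 for BOP1), where WDR12 and BOP1 had an unadjusted p under 0.05. BOP1 was nearest to the threshold (edgeR adjusted p = 0.0526) and was called higher by DESeq2.

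The counts of members called in UM-SCC-47 depended on single libraries, as did those of all genes. The share of all genes called lower was 25.5% with all libraries, and 17.9%, 19.8% and 18.9% without DMSO replicate 1, 2 or 3. Without JQ1 replicate 1, 19.7% of all genes were lower and 11.3% higher, and without JQ1 replicate 3, 26.5% and 22.2%. Without DMSO replicate 1, 2 or 3 there were 2, 4 and 2 lower members (POLR1A and UBTF each time) and 0, 1 and 1 higher, without JQ1 replicate 1 there were 6 lower and 0 higher, and without JQ1 replicate 3, the library of steep GC slope, 6 lower and 6 higher. DESeq2 gave 2 lower and 5 higher members, and a correction for GC content gave 5 lower and 9 higher, or 7 and 6 where it left the scaling between libraries as it was. Over all genes the share of calls that were higher was 38.7% with TMM, 48.0% with RLE scaling, 50.6% with DESeq2 and 24.1% with library size alone. The members' median followed, at 0.23 with RLE scaling and -0.16 with library size alone, where the median of all genes stood at 0.12 and -0.28.

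**Figure D2:**
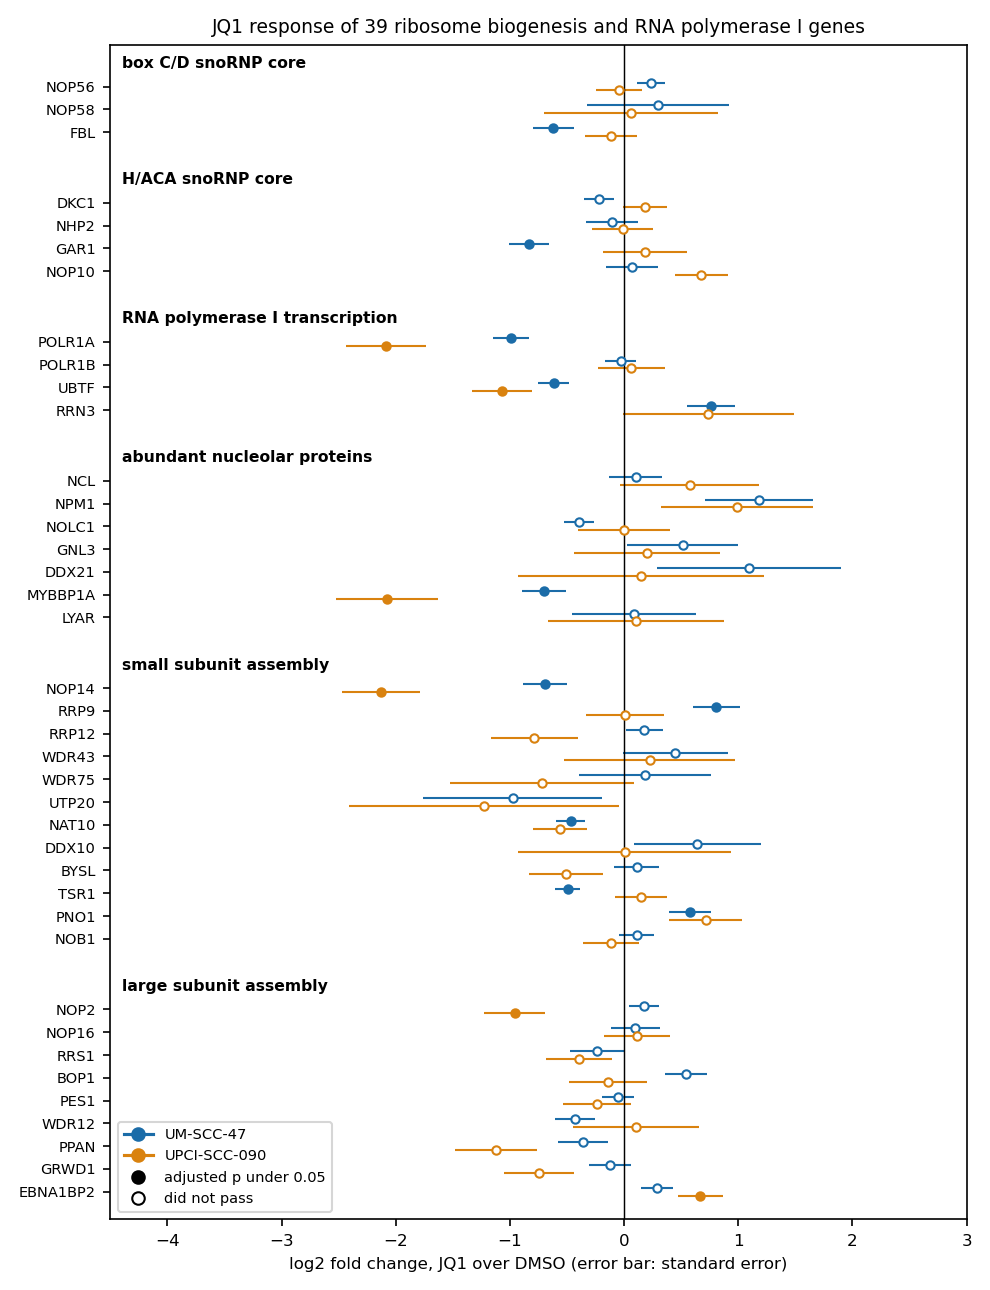
Log2 fold change of JQ1 over DMSO (x axis, error bars are standard errors) for the 39 members by role, in UM-SCC-47 (blue) and UPCI-SCC-090 (orange), filled where the edgeR adjusted p was under 0.05. The filled points left of 0 in both lines are POLR1A, UBTF, MYBBP1A and NOP14, and most members lie near 0 or have wide errors.

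The second comparison was JQ1 against DMSO in UPCI-SCC-090. Of the 39 members 5 were lower (12.8%) beside 20.4% of all genes tested, and 1 was higher (2.56%) beside 7.67%. The other 33 did not pass, and the median log2 fold change was 0.00, against -0.14 over all genes. Libraries did not overlap for 11 members (6 below and 5 above), which is 28.2% of the list beside 40.5% of all genes. Replicates varied more in this line, with a common coefficient of variation of 46.95%, against 31.6% in UM-SCC-47.

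In UPCI-SCC-090 the lower members fell further than in UM-SCC-47 by their point values. POLR1A had 21.3, 33.4 and 12.3 CPM with JQ1, against 69.3, 109.5 and 77.7 CPM with DMSO. The highest JQ1 library was less than the lowest DMSO library, and the level was 0.235 of that with DMSO (log2 fold change -2.09 ± 0.35, edgeR adjusted p = 0.00736). UBTF had 87.9, 138 and 61.6 CPM with JQ1, against 154, 217 and 176 CPM with DMSO (log2 fold change -1.07 ± 0.26, edgeR adjusted p = 0.026). POLR1B had 76.2, 50.5 and 69.2 CPM with JQ1, against 63.5, 50.6 and 62.3 CPM with DMSO, and did not pass (0.06 ± 0.29, edgeR adjusted p = 0.908). RRN3 had 108, 24.9 and 133 CPM with JQ1, against 75.3, 21.9 and 56.8 CPM with DMSO. Replicate 2 was the low library of both RRN3 groups, and the difference did not pass (0.74 ± 0.75, edgeR adjusted p = 0.529).

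NOP14 had 9.92, 16.1 and 6.41 CPM with JQ1, against 40.1, 49.6 and 38.3 CPM with DMSO. This was the largest fall of a called member in UPCI-SCC-090, to 0.228 of the DMSO level (log2 fold change -2.13 ± 0.34, edgeR adjusted p = 0.00631). MYBBP1A had 11.5, 18.2 and 5.18 CPM with JQ1, against 33.4, 59.8 and 38.9 CPM with DMSO. It stood at 0.237 of the DMSO level (log2 fold change -2.08 ± 0.45, edgeR adjusted p = 0.0163). NOP2, an rRNA methyltransferase of the large subunit, had 34.6, 46.9 and 24.2 CPM with JQ1, against 49.2, 75.2 and 63.3 CPM with DMSO. It was lower (log2 fold change -0.96 ± 0.27, edgeR adjusted p = 0.0399). EBNA1BP2, a large subunit assembly factor, had 146, 128 and 128 CPM with JQ1, against 70.7, 82.6 and 83.0 CPM with DMSO. It was the 1 higher member (log2 fold change 0.67 ± 0.20, edgeR adjusted p = 0.0472), a call that the fit with the replicate number as a block did not keep (0.66, edgeR adjusted p = 0.0525).

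The members known as nucleolar landmarks did not pass in UPCI-SCC-090. FBL had 336, 448 and 305 CPM with JQ1, against 250.1, 439 and 402 CPM with DMSO (log2 fold change -0.11 ± 0.23, edgeR adjusted p = 0.766). NCL had 530.3, 207 and 638 CPM with JQ1, against 488, 172 and 218 CPM with DMSO (0.57 ± 0.61, edgeR adjusted p = 0.548). NPM1 had 784, 278 and 1184 CPM with JQ1, against 469, 169.6 and 459 CPM with DMSO (0.99 ± 0.67, edgeR adjusted p = 0.33). It was called higher with the correction for GC content, but not where that left the scaling as it was. For NCL and NPM1 replicate 2 was the low library in both groups. PPAN, a large subunit factor whose gene overlaps a read-through transcript, stood at -1.13 ± 0.36 (edgeR adjusted p = 0.0596) and was called lower with the replicate block. Of the rest the H/ACA protein NOP10 (0.67 ± 0.23, edgeR adjusted p = 0.0757) came nearest to the threshold, and UTP20 had the lowest value and the widest error (-1.23 ± 1.18).

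Single libraries decided more in UPCI-SCC-090. Without JQ1 replicate 1 no member was called in either direction, and POLR1A and NOP14 stood at -1.90 and -1.92 (edgeR adjusted p = 0.0701 and 0.072). Calls over all genes fell as well, to 7.52% lower and 2.76% higher, beside 20.4% and 7.67% with all libraries. The share of all genes called lower was 13.3%, 13.0% and 12.1% without DMSO replicate 2, DMSO replicate 3 or JQ1 replicate 3. Without DMSO replicate 2 or 3 the lower members were 2 (NOP14 and POLR1A), without JQ1 replicate 3 they were 3, and EBNA1BP2 was called only without JQ1 replicate 2. The replicate block gave 6 lower and 0 higher members. DESeq2 and RLE scaling each gave 3 lower (MYBBP1A, NOP14 and POLR1A), and the correction for GC content 6 lower and 6 higher, or 6 and 1 where it left the scaling as it was. Over all genes the share of calls that were higher was 27.4% with TMM, 42.3% with RLE scaling, 43.2% with DESeq2, 17.1% with library size alone and 51.9% with the correction for GC content. The members' median was 0.28 with RLE scaling and -0.25 with library size alone, where that of all genes was 0.14 and -0.38.

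POLR1A, UBTF, MYBBP1A and NOP14 were lower with JQ1 in both lines. These are 4 of 39 members (10.3%), beside 13.1% of the genes tested in both lines (1620 of 12327). They made up 50% of the 8 members lower in UM-SCC-47 and 80% of the 5 lower in UPCI-SCC-090, where genes lower in both made up 55.5% and 69.7% of all genes so called among those tested in both. In all 13 members passed in at least 1 line and 26 in neither. No member was called higher in both lines. With the added threshold of 1 on the log2 fold change none of the 4 was called in UM-SCC-47, and all 4 were in UPCI-SCC-090. Of the 18 other alternatives, the UM-SCC-47 call was lost in 0 for POLR1A, 4 for UBTF, 11 for NOP14 and 12 for MYBBP1A, and the UPCI-SCC-090 call in 1 for POLR1A, 1 for NOP14, 4 for MYBBP1A and 9 for UBTF.

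The third comparison asked whether the JQ1 response differed between the lines (UPCI-SCC-090 minus UM-SCC-47). No member passed edgeR's test of the difference, beside 6.56% of all genes, and DESeq2 called 0 as well. Beside 2859 of the 14396 genes tested, 4 members had an unadjusted p under 0.05. These were NOP14 (-1.30 ± 0.45, edgeR adjusted p = 0.123), NOP2 (-1.01 ± 0.37, edgeR adjusted p = 0.139), GAR1 (1.1 ± 0.37, edgeR adjusted p = 0.116) and TSR1 (0.73 ± 0.23, edgeR adjusted p = 0.0823). The larger falls of POLR1A (difference -0.96 ± 0.46, edgeR adjusted p = 0.283) and MYBBP1A (-1.23 ± 0.56, edgeR adjusted p = 0.252) in UPCI-SCC-090 did not pass this test. Without UPCI-SCC-090 JQ1 replicate 2, 7 members passed (MYBBP1A, NOP14, NOP2, POLR1A, RRP12, GAR1 and TSR1). Of all genes 7.66% then passed with a negative difference and 4.45% with a positive one. Without UM-SCC-47 JQ1 replicate 3 or UPCI-SCC-090 DMSO replicate 1 NOP2 alone passed. With the correction for GC content 6 members passed, beside 9.70% of all genes with a negative and 8.61% with a positive difference. Where it left the scaling as it was 7 members passed, beside 9.70% and 7.72% of all genes.

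How much a member varied between replicates went with its GC content. The members' GC content ran from 37.7% to 65.6%. For the 16 members under 45% the median SD between replicates (log2 CPM) was 0.70 in UM-SCC-47 and 0.98 in UPCI-SCC-090, whereas it was 0.18 and 0.45 for the other 23. Of the members called lower, 1 of the 16 and 7 of the 23 were found in UM-SCC-47, and 0 of the 16 and 5 of the 23 in UPCI-SCC-090. Over all genes of any GC content 25.5% were lower in UM-SCC-47 and 20.4% in UPCI-SCC-090. The shares of all genes by GC content were not taken, so this split is not shown to be particular to the members. NPM1, NCL, DDX21 and UTP20 are among the 16. DDX21 had 51.6, 16.2 and 192 CPM in UM-SCC-47 with JQ1, against 38.2, 33.7 and 48.9 CPM with DMSO, so that replicates of 1 treatment lay further apart than the treatments. Across the 39 members the log2 fold change and GC content had a Spearman rho of -0.31 in UM-SCC-47 and -0.60 in UPCI-SCC-090, over points that share the same 6 libraries. Among the members the GC slope per 10 points was -0.97 in UPCI-SCC-090 JQ1 replicate 3, 0.68 in its JQ1 replicate 2 and 0.82 in its DMSO replicate 2. The libraries of steepest slope were UM-SCC-47 JQ1 replicate 3, UPCI-SCC-090 JQ1 replicate 3 and UPCI-SCC-090 DMSO replicate 2. Without them 6 members were lower and 6 higher in UM-SCC-47, beside 26.5% and 22.2% of all genes. In UPCI-SCC-090 5 were lower and 0 higher, beside 16.5% and 6.57%. These 5 were not the same set as with all libraries. NOP14 and POLR1A stayed, MYBBP1A, NOP2 and UBTF lost the call, and DDX21, UTP20 and WDR75, all under 45% GC, became called. DDX21 had a positive value with all libraries (0.15 ± 1.08).

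**Figure D3:**
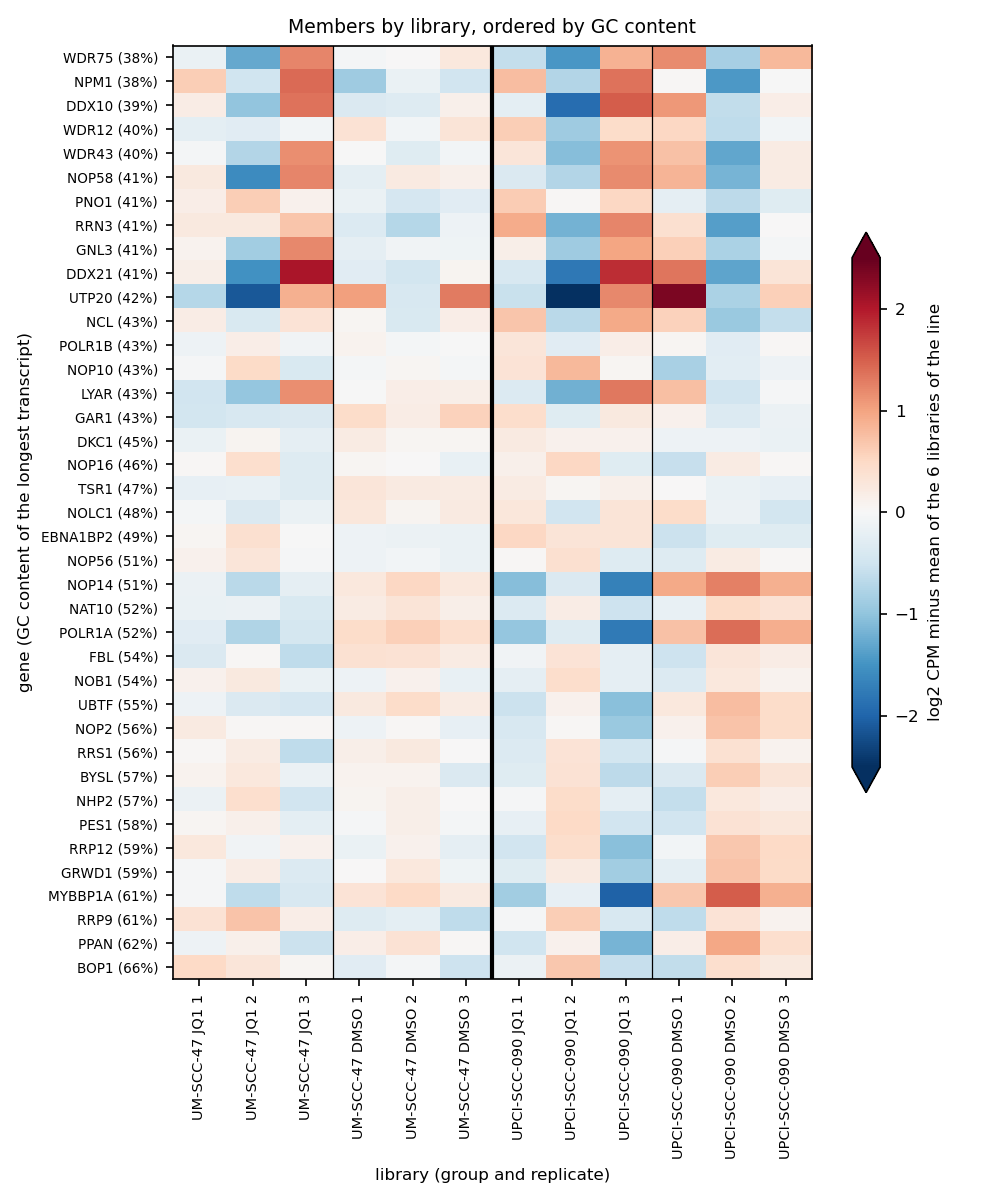
Log2 CPM of the 39 members (rows, ordered by GC content from 37.7% at the top to 65.6% at the bottom) in the 12 libraries (columns), each minus the mean of the 6 libraries of its line. Most rows at the top are high in JQ1 replicate 3 and low in JQ1 replicate 2 of both lines, whereas POLR1A, NOP14 and MYBBP1A are below the mean in all JQ1 libraries.

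The fourth comparison was UPCI-SCC-090 against UM-SCC-47, both with DMSO. Of the 39 members 6 were higher in UPCI-SCC-090 (15.4%) beside 23.3% of all genes, and 2 were lower (5.13%) beside 19.9%. The largest difference was BOP1, of the PeBoW complex of the large subunit, with 74.2, 153 and 136 CPM in UPCI-SCC-090, against 40.6, 47.9 and 34.5 CPM in UM-SCC-47 (log2 fold change 1.56 ± 0.35, edgeR adjusted p = 0.00321). BYSL, a small subunit factor, had 32.1, 63.2 and 51.0 CPM in UPCI-SCC-090, against 22.7, 22.5 and 16.5 CPM in UM-SCC-47 (1.25 ± 0.33, edgeR adjusted p = 0.00874). UBTF was 2.1 times as high (1.07 ± 0.27, edgeR adjusted p = 0.00723). These 3 genes were higher in each UPCI-SCC-090 library than in any UM-SCC-47 library. GRWD1 (1.09 ± 0.32), NOP56 (0.71 ± 0.22) and DKC1 (0.49 ± 0.16) were higher as well, and NOLC1 (-0.86 ± 0.27) and TSR1 (-0.50 ± 0.16) lower. MYC itself was lower in UPCI-SCC-090 (-1.63 ± 0.22, edgeR adjusted p = 0.000107), where MYCN had 12.5, 16.8 and 15.5 CPM, against 0.191, 0.15 and 0.0436 CPM in UM-SCC-47. BOP1, BYSL and UBTF kept their calls without any 1 library. Without UM-SCC-47 DMSO replicate 1 or 3 or UPCI-SCC-090 DMSO replicate 2 they were the only members called (3 higher, 0 lower). Of all genes 17.5%, 17.2% and 19.7% were then higher and 17.1%, 17.1% and 18.6% lower. Without UM-SCC-47 DMSO replicate 2 there were 5 higher and 1 lower, beside 19.1% and 17.8% of all genes. Without UPCI-SCC-090 DMSO replicate 3 there were 3 higher and 2 lower, beside 16.3% and 19.8%. The JQ1 libraries share the fit. Without UPCI-SCC-090 JQ1 replicate 2 there were 10 higher and 3 lower, beside 26.6% and 22.5% of all genes. Without its JQ1 replicate 3 there were 10 higher and 2 lower, beside 25.5% and 21.0%.

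**Figure D4:**
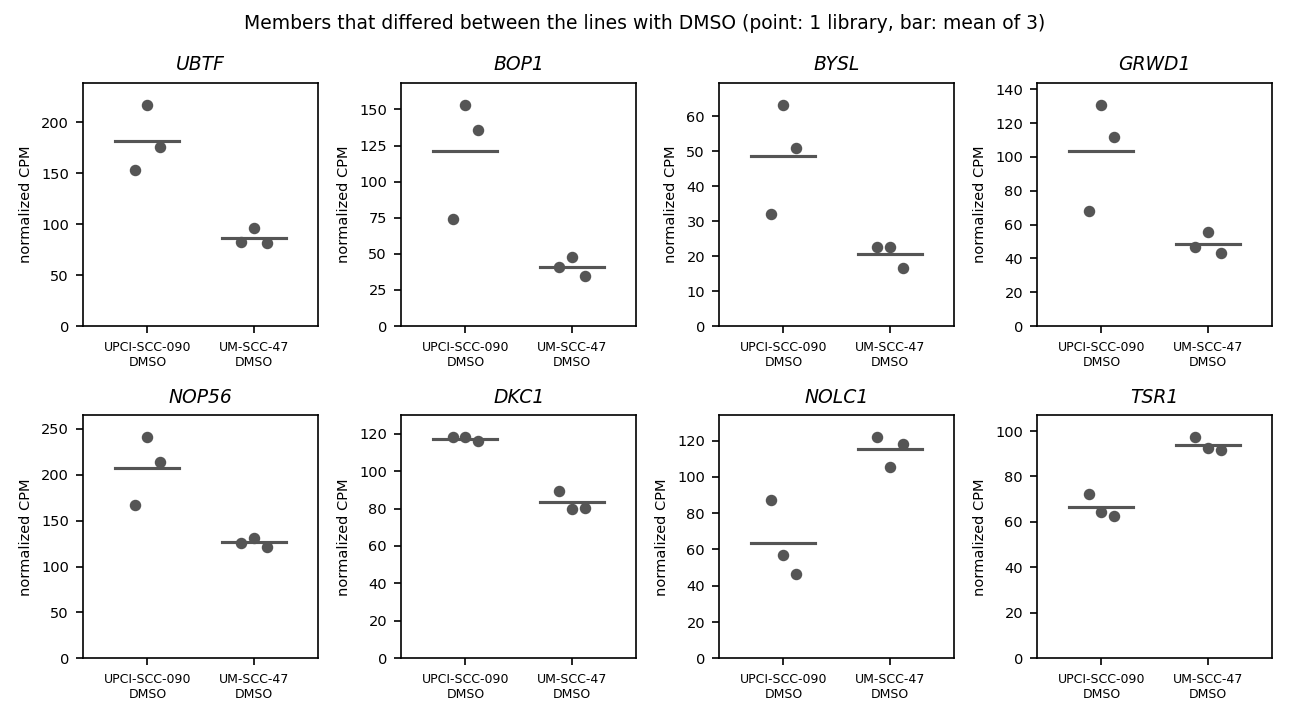
Normalized CPM (y axes, from 0) of the 8 members that differed between the lines with DMSO, UPCI-SCC-090 left and UM-SCC-47 right, 1 point per library and a bar at the mean of 3. BOP1 lies between 74.2 and 153 CPM in UPCI-SCC-090 and between 34.5 and 47.9 CPM in UM-SCC-47.

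Other genes of the pathway, from lists of general knowledge, were read beside the members. Of all genes 25.5% were lower and 16.1% higher in UM-SCC-47, and 20.4% and 7.67% in UPCI-SCC-090. An unadjusted p under 0.05 was reached by 6720 of 13440 genes in UM-SCC-47 and 5196 of 13150 in UPCI-SCC-090. The first list held 16 further genes of RNA polymerase I, among them subunits it shares with other polymerases. In UM-SCC-47 2 were lower and 2 higher (12.5% each). In UPCI-SCC-090 0 were lower and 2 higher (12.5%), and 4 had an unadjusted p under 0.05. POLR1H, a small subunit of the enzyme, was lower in UM-SCC-47 (-1.24 ± 0.25, edgeR adjusted p = 0.00804), as was TAF1C of its promoter factor SL1 (-1.05 ± 0.17, edgeR adjusted p = 0.00345). POLR2L, shared by the 3 nuclear polymerases, was higher in both lines (1.75 ± 0.21, edgeR adjusted p = 0.00134, and 1.41 ± 0.31, edgeR adjusted p = 0.0169). Of 36 further small subunit processome genes 0 were lower and 4 higher (11.1%) in UM-SCC-47, where 7 had an unadjusted p under 0.05. In UPCI-SCC-090 1 was lower (2.78%), the helicase DHX37 (-2.12 ± 0.42, edgeR adjusted p = 0.0123), and 0 were higher, with 4 at an unadjusted p under 0.05.

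Of 42 further large subunit assembly genes 8 were lower (19.0%) and 2 higher (4.76%) in UM-SCC-47, beside 25.5% and 16.1% of all genes. In UPCI-SCC-090 4 were lower (9.52%) and 0 higher, beside 20.4% and 7.67%, and 9 had an unadjusted p under 0.05. The helicase DDX54 fell in both lines (-0.99 ± 0.20, edgeR adjusted p = 0.00921, and -1.74 ± 0.35, edgeR adjusted p = 0.0129). SBDS, which helps to release a factor that keeps the subunits apart, was higher in UM-SCC-47 (1.49 ± 0.24, edgeR adjusted p = 0.00365). Of 22 genes of RNA polymerase III, which makes 5S rRNA and tRNA, 5 were lower (22.7%) and 1 higher (4.55%) in UM-SCC-47. In UPCI-SCC-090 these were 4 (18.2%) and 1 (4.55%). GTF3C6, a subunit of the factor TFIIIC, had 2.01, 2.19 and 3.14 CPM in UM-SCC-47 with JQ1, against 15.5, 15.8 and 18.3 CPM with DMSO. It was also lower in UPCI-SCC-090 (-2.77 ± 0.24, edgeR adjusted p = 0.000415 in UM-SCC-47, and -2.68 ± 0.47, edgeR adjusted p = 0.00856).

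In the MYC network 5 of 11 genes were lower (45.5%) and 3 higher (27.3%) in UM-SCC-47, beside 25.5% and 16.1% of all genes. In UPCI-SCC-090 4 of 12 were lower (33.3%) and 2 higher (16.7%), beside 20.4% and 7.67%. Of 15 other known targets of MYC outside this pathway 8 were lower and 1 higher in UM-SCC-47, and 3 and 2 in UPCI-SCC-090. Their median log2 fold change was -0.50 in UM-SCC-47 and -0.30 in UPCI-SCC-090, beside 0.09 and 0.00 for the 39 members and -0.03 and -0.14 for all genes, and the differences between the lists were not tested. The lower targets were 53.3% of the list in UM-SCC-47, beside 25.5% of all genes, and 20% in UPCI-SCC-090, beside 20.4%. CAD, an enzyme of pyrimidine synthesis, was lower in both lines (-0.68 ± 0.13, edgeR adjusted p = 0.00786, and -1.76 ± 0.33, edgeR adjusted p = 0.0101). ODC1, of polyamine synthesis, was higher in UM-SCC-47 (1.31 ± 0.20, edgeR adjusted p = 0.00315). MNT, a repressor that competes with MYC for MAX, was lower in both lines (-1.19 ± 0.17, edgeR adjusted p = 0.00241, and -2.03 ± 0.43, edgeR adjusted p = 0.016).

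RPL5 and RPL11, which with 5S rRNA form the particle that restrains MDM2 when assembly falters, were measured beside MDM2 and CDKN1A, an inhibitor of the cell cycle. MDM2 was higher with JQ1 in UM-SCC-47 (3.15 ± 0.65, edgeR adjusted p = 0.00936) and stood at 2.12 ± 1.02 in UPCI-SCC-090 (edgeR adjusted p = 0.179). RPL5 was higher with JQ1 in both lines (0.74 ± 0.13, edgeR adjusted p = 0.00462, and 1.78 ± 0.40, edgeR adjusted p = 0.0184), and RPL11 in UPCI-SCC-090 (2.07 ± 0.17, edgeR adjusted p = 0.0037), whereas in UM-SCC-47 RPL11 stood at 0.58 ± 0.22 (edgeR adjusted p = 0.0809). CDKN1A had 1035, 1229 and 812 CPM in UM-SCC-47 with JQ1, against 131, 138 and 129 CPM with DMSO. In UPCI-SCC-090 it had 1973, 2769 and 1542 CPM with JQ1, against 94.3, 169 and 152 CPM with DMSO. It was higher in both lines without overlap (2.94 ± 0.18, edgeR adjusted p = 0.000168, and 3.80 ± 0.27, edgeR adjusted p = 0.00323). The share of counts in ribosomal protein genes was 11.4% to 12.2% in UPCI-SCC-090 with JQ1, against 4.60% to 6.26% with DMSO, and its part in the values of the members was not tested.

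**Figure D5:**
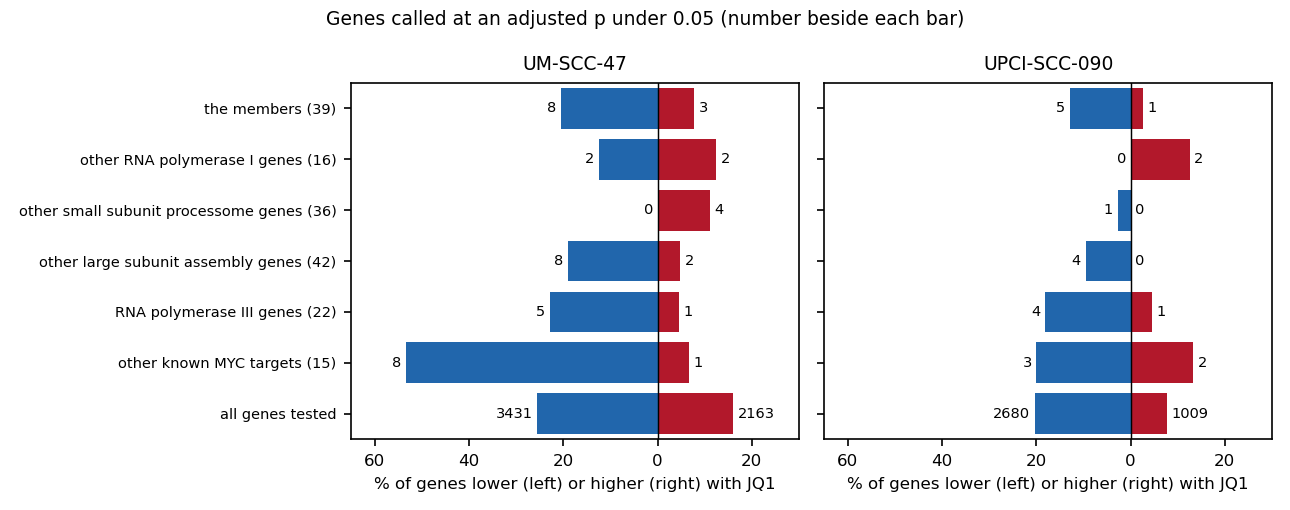
Share of genes lower (blue, left of 0) or higher (red, right of 0) with JQ1 at an edgeR adjusted p under 0.05, for the members, 5 other lists (number tested in parentheses) and all genes tested, in UM-SCC-47 and UPCI-SCC-090, with the number of genes beside each bar. The members' bars (8 and 3 genes, then 5 and 1) are shorter than those of all genes in both directions and both lines.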

How the data were processed

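RNA from cells treated with JQ1 or DMSO was sequenced after removal of ribosomal RNA, with 3 libraries in each of 4 groups. The authors deposited 1 table of estimated counts per gene (20738 genes). Salmon 0.8.2, which estimates counts of transcripts, and DESeq2 1.28.0 are listed in their notes on processing. The sources used here do not give the transcript index, so each fold change rests on an assignment of reads that was not examined. Estimated counts were rounded to whole numbers. Chi-square values between replicate libraries ran from 8.59 to 433 for each gene on average, so no library was a copy of another.

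Each line was tested by itself with the quasi-likelihood F test of edgeR 4.0.16 (R 4.3.3), with TMM scaling, a filter on low counts (filterByExpr, minimum count 10, minimum total 15) and Benjamini-Hochberg adjustment over all genes tested at 0.05. The difference between the lines and the comparison of DMSO groups came from 1 fit over the 12 libraries. The SE is the log2 fold change divided by the root of F. The scripts were tested on simulated data. Symbols and GRCh37 positions came from GENCODE 44 lifted to GRCh37 (20015 genes matched, 723 not), and promoter windows from RefSeq on GRCh38.p14.

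The members and lists were chosen with earlier results of these data known. Values per library are given for MYC, NCL, NPM1, FBL and the 4 RNA polymerase I members in any case, and by line for up to 5 of the largest falls and 5 of the largest rises among called members whose groups do not overlap. 1 gene of the list around the 5S particle is not reported here. From other lists up to 4 called genes in each line and direction with at least 5 CPM could be named. Replicate numbers are shared between groups. Deviations of same-numbered libraries from the group means correlated at 0.10, 0.82 and 0.24 in UPCI-SCC-090, all over 0.1, so its libraries may be pairs by number. JQ1 replicate 3, however, correlated best with DMSO replicate 1 (0.83), so the pairing is doubtful. The tests reported here pair no libraries in either line, and the fit with the replicate number as a block is given as an alternative. Alternatives were other scalings, no filter, DESeq2 1.42.0, the replicate number as a block, a correction for GC content, 1 fit over all libraries, an added fold threshold and leaving out each library. Leaving out the libraries of steepest GC slope, the block with the GC correction, and a GC correction with a centred trend were added after the data were seen, the last after the planned correction had moved the split of higher and lower calls.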

Additional observations from a re-analysis of the deposited data

Results flagged for a closer look

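TSR1, a late small subunit assembly factor, differed in its JQ1 response between the lines at an unadjusted p under 0.05. It was picked because its JQ1 libraries lay apart from the DMSO libraries on opposite sides in the lines, so that pattern is no added support. In UM-SCC-47 it had 68.4, 69.9 and 63.3 CPM with JQ1, against 97.2, 92.5 and 91.6 CPM with DMSO. In UPCI-SCC-090 it had 83.2, 74.4 and 79.4 CPM with JQ1, against 72.5, 64.2 and 62.4 CPM with DMSO. JQ1 libraries were all below the DMSO libraries in UM-SCC-47 and all above them in UPCI-SCC-090. Libraries did not overlap for 55.3% of all genes in UM-SCC-47 and 40.5% in UPCI-SCC-090. TSR1 was called lower in UM-SCC-47 (-0.49 ± 0.11, edgeR adjusted p = 0.0116). In UPCI-SCC-090 its rise did not pass (0.15 ± 0.23, edgeR adjusted p = 0.685). The difference of the responses was 0.73 ± 0.23 on the log2 scale and failed the correction over all genes (edgeR adjusted p = 0.0823). An unadjusted p under 0.05 was reached by 2859 of the 14396 genes tested.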

How the results depend on the processing

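The 27 gene results counted here are only those called in the tests reported. Over 526 combinations of these with alternatives, the fold threshold aside, 369 kept the call, 157 lost it and 0 reversed. POLR1A and MYC in UM-SCC-47, and BOP1 and UBTF between the DMSO groups, kept their calls in all of these alternatives. With the fold threshold POLR1A (-0.99) and MYC (-0.94) lost theirs in UM-SCC-47. Members that were not called could change sign. Without the libraries of steepest GC slope 12 of 28 did so in UM-SCC-47 and 16 of 33 in UPCI-SCC-090. In each line 1 of them became called in the opposite direction. In UPCI-SCC-090 12 of 33 changed sign with the GC correction, 3 of them called, and 18 with a centred trend, 1 of them called. In UM-SCC-47 (8 lower, 3 higher) the members lower and higher were 3 and 4 with RLE scaling, 12 and 0 with library size alone, 2 and 5 with DESeq2, 9 and 3 with the replicate block, 5 and 9 with the GC correction, 4 and 8 with that and the block, 7 and 6 with a centred trend, 3 and 0 in 1 fit over the 12 libraries, 6 and 6 without the library of steepest GC slope, and 0 and 0 with a fold threshold of 1 (log2). Leaving out 1 library gave 2 to 8 lower and 0 to 6 higher.

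In UPCI-SCC-090 (5 lower, 1 higher) they were 3 and 1 with RLE scaling, 3 and 0 with upper-quartile scaling, with no filter and with DESeq2, 6 and 0 with library size alone and with the replicate block, 6 and 6 with the GC correction, 5 and 5 with that and the block, 6 and 1 with a centred trend, 8 and 2 with that and the block, 6 and 3 in 1 fit, 5 and 0 without the steepest libraries, and 4 and 0 with the fold threshold. Without the steepest libraries the 5 lower members were DDX21, NOP14, POLR1A, UTP20 and WDR75. Leaving out 1 library gave 0 to 6 lower and 0 to 1 higher.

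The members' median (0.09 in UM-SCC-47) was 0.23 with RLE scaling, -0.16 with library size alone, 0.25 with DESeq2, -0.037 with the replicate block and -0.10 to 0.10 without 1 library. In UPCI-SCC-090 (0.00) it was 0.28, -0.25 and 0.29 in the first 3 of these settings, 0.12 with no filter, 0.10 with the GC correction and block, -0.21 with a centred trend, -0.20 with that and the block, and -0.11 to 0.12 without 1 library. The median difference between the lines was -0.31 to -0.0059 without 1 library.

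Members that differed in response between the lines (0) were 6 with the GC correction, 6 with that and the block, 7 with a centred trend, 5 with that and the block, and 0 to 7 without 1 library. Over all genes negative and positive differences were 3.63% and 2.93% in the test reported, and 9.70% and 8.61% with the GC correction. Between the DMSO groups (2 lower, 6 higher) the counts were 7 and 12 with the GC correction, 6 and 12 with that and the block, 6 and 13 with a centred trend, 6 and 14 with that and the block, 3 and 3 without the steepest libraries, 1 and 6 with no filter, 2 and 4 with RLE scaling and with DESeq2, 2 and 9 with the replicate block, 3 and 4 with upper-quartile scaling, 3 and 7 with library size alone, and 0 to 3 and 3 to 10 without 1 library. Over all genes the GC correction gave 27.9% lower and 29.9% higher calls between the DMSO groups, beside 19.9% and 23.3% without it. The GC correction with a centred trend was chosen after the data were seen. The share of higher calls over all genes with the GC correction was 51.3% in UM-SCC-47 (38.7% in the tests reported) and with a centred trend 43.7%. In UPCI-SCC-090 these were 51.9%, 27.4% and 32.7%. In UM-SCC-47 same-numbered libraries correlated at -0.22, 0.22 and 0.51, so the numbers were not taken as pairs. In UPCI-SCC-090 the block ended the EBNA1BP2 call, added PPAN and changed no other member's call. The causes of these changes were not tested.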

Other observations

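Of 6 genes of proliferation, a list outside the pathway, 4 were lower and 0 higher in UM-SCC-47, and 3 and 0 in UPCI-SCC-090 (edgeR, with 4 and 3 at an unadjusted p under 0.05), beside 25.5% lower and 16.1% higher of all genes in UM-SCC-47, and 20.4% and 7.67% in UPCI-SCC-090. PCNA (-0.05 ± 0.14 and 0.39 ± 0.43) and TOP2A (-2.48 ± 1.06 and -2.52 ± 1.14) passed in neither line, and MCM6 was lower in UM-SCC-47 (-1.51 ± 0.15, edgeR adjusted p = 0.000611) but stood at 0.14 ± 0.39 in UPCI-SCC-090. MCM2, a subunit of the replicative helicase, was lower in both lines (log2 fold change -2.26 ± 0.14, edgeR adjusted p = 0.000167 in UM-SCC-47, and -1.40 ± 0.28, edgeR adjusted p = 0.012 in UPCI-SCC-090). CCNB1, the mitotic cyclin, was lower as well (-3.01 ± 0.19, edgeR adjusted p = 0.000195, and -2.49 ± 0.29, edgeR adjusted p = 0.00379).

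Of the host genes of snoRNAs 3 of 12 listed were in the table. Beside 16.1% of all genes higher in UM-SCC-47 and 7.67% in UPCI-SCC-090, 0 of the 3 were lower and 1 higher (33.3%) in each line. In UM-SCC-47 this was EIF4A2 (1.02 ± 0.29, edgeR adjusted p = 0.0313), and in UPCI-SCC-090 RACK1 (1.18 ± 0.25, edgeR adjusted p = 0.0158). POLR3GL, a subunit of RNA polymerase III, was higher in both lines (1.55 ± 0.22, edgeR adjusted p = 0.00229, and 2.63 ± 0.34, edgeR adjusted p = 0.00435), beside the lower GTF3C6 of the same machinery.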
